A study of Rattus norvegicus with 12 samples.

Results

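The probes of 4 genes of ubiquitin ligation were followed across 12 single-colour Agilent arrays of rat thoracic aorta: Ndfip1 and Ndfip2, Trim2, and Mex3c. They were found by the transcript accession that the scanner files give for each probe, looked up in RefSeq's rat gene table: probe A_44_P166216 for Ndfip1, A_44_P1047638 for Ndfip2, A_44_P761041 for Trim2 and A_43_P20016 for Mex3c. Each gene had 1 probe, so there were 4 probes among the 38321 of the array that were not controls and 4 genes among the 38 that could be named. Only 62 of the 38321 probes carried such an accession, and 39 could be named. Shares over all probes given below are therefore almost wholly of probes without a gene name, not of ordinary named genes. The study compared spontaneously hypertensive rats (SHR), an inbred strain with high blood pressure, in 3 groups of 3 arrays each with 3 arrays of Wistar-Kyoto rats (WKY), the normotensive strain. The groups were SHR given a high dose of BSJY, a preparation of 8 herbal granules (SHR-Bh, labelled 6.75 g/ml/day), SHR given captopril, an inhibitor of angiotensin-converting enzyme (SHR-Ca, labelled 0.125 g/ml/day), untreated SHR (SHR-C) and untreated WKY. All were males that entered the study at 12 weeks of age and received the drug, or an equal volume of water in SHR-C and WKY, by gavage once daily for 16 weeks; an age of 32 weeks stands in the sample labels. The treatment notes, shared by all groups, also call the aortas irradiated, without a dose. A low-dose BSJY group that the notes name was not analysed here. Nothing in the labels says whether an array held RNA of 1 rat, and the p-values therefore cover only the spread among these arrays, which may be technical.

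Ubiquitin is attached to proteins by a chain of enzymes in which the last, the ubiquitin ligase, picks the substrate. Ndfip1 and Ndfip2 are membrane proteins of the Golgi and endosomes that bind ligases of the Nedd4 family and bring them to their substrates. The Nedd4 family is best known in blood pressure control for removing the epithelial sodium channel from the surface of kidney cells. Trim2 is itself a ligase with a RING domain, known in mouse neurons for acting on the neurofilament light chain, and Mex3c joins a RING domain to RNA-binding domains.

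Trim2, Ndfip1 and Ndfip2 had higher levels in SHR than in WKY in the comparison given below, and the promoter windows that RefSeq gives for these 3 genes on the rat build GRCr8 are shown for that reason. Each runs 5′ to 3′ from 250 bases before to 50 bases after the annotated start, in lower case, with matches to the GC box (GGGCGG on either strand) in capitals. No window of Mex3c was available.
Trim2, chr2:171862395-171862694, minus strand: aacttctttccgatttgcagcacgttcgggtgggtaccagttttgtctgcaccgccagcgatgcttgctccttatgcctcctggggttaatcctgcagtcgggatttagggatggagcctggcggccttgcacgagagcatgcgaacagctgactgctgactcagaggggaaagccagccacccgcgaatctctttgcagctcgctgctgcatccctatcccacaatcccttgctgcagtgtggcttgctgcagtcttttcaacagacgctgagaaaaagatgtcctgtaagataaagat
Ndfip1, chr18:30516775-30517074, plus strand: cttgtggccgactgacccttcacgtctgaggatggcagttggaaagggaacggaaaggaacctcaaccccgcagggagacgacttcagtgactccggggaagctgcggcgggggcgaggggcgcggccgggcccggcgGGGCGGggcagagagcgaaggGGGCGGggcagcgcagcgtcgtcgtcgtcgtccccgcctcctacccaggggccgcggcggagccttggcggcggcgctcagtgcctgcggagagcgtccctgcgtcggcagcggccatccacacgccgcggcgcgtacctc
Ndfip2, chr15:88446682-88446981, plus strand: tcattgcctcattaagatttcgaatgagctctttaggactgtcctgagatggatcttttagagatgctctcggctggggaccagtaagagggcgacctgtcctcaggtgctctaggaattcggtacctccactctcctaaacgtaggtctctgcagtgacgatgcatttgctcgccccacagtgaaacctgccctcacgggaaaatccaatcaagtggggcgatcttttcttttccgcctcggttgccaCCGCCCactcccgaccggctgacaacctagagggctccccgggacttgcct
The Ndfip1 window held 2 GC boxes and 40 CG dinucleotides, the Ndfip2 window 1 GC box and 15 CG dinucleotides, and the Trim2 window no GC box and 13 CG dinucleotides. A GC box was present in 33.1% of 33469 rat promoter windows of the same length, whose median was 7 CG dinucleotides. GC content was 73.3% in the Ndfip1 window, above 95.4% of all windows, against 54.7% for Ndfip2 and 54% for Trim2. The TATA box (TATAAA, either strand) was found in none of the 3 windows and in 14.2% of all windows. The E-box (CANNTG) was found 3 times in Ndfip2 and once each in Ndfip1 and Trim2, and was present in 72.1% of all windows. These are matches of letters in a window and were not set against expression.

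Values below are of 2 kinds. The processed intensity is the brightness of the spot after the scanner software's background correction, taken as the geometric mean of its 10 spots less any marked as outliers, and the level is its log2 minus the log2 of the array's 75th percentile. The 9 SHR arrays had 75th percentiles of 109.8 to 190.2 in intensity and the 3 WKY arrays 182.0 to 384.8, and 51.2% to 68.6% of probes were well above background on SHR arrays against 73.9% to 87.9% on WKY arrays. The arrays fell into 5 scan sessions by the scan time in the headers. Session 1 held the 3 WKY arrays and was run 625 days after the last SHR array, while the SHR arrays were all scanned within 4 days. Strain and scan session therefore cannot be told apart. Among the 10 genes used as references on this array, 3 rose and none fell in SHR-C against WKY, with a median change of -0.086 and a range of -0.49 to 0.83. In SHR-Bh against WKY 2 rose and none fell (-0.47 to 1.02), and in SHR-Ca against WKY 3 rose and 2 fell (-1.08 to 0.88).

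Trim2, the ubiquitin ligase, was higher in every SHR group than in WKY. Its processed intensity was 658.4, 1287.1 and 1086.9 on the SHR-Bh arrays, 721.2, 721.7 and 1064.6 on the SHR-Ca arrays, 767.7, 719.4 and 713.2 on the SHR-C arrays, and 128.3, 386.5 and 417.0 on the WKY arrays. All 9 SHR arrays lay above all 3 WKY arrays before any scaling. The share of probes that did so without scaling is not given here. The levels were 2.58, 2.80 and 2.86 in SHR-Bh, 2.41, 1.98 and 3.00 in SHR-Ca, 2.01, 2.23 and 2.24 in SHR-C, and -0.50, 0.17 and 0.12 in WKY. On that scale too the strains did not overlap, as for 20.4% of the probes tested in the higher direction. The change was 2.24 in SHR-C against WKY (SE 0.29, limma adjusted p = 5.6e-05), or 4.71-fold. It was 2.83 in SHR-Bh (SE 0.29, adjusted p = 9.4e-06), or 7.09-fold, and 2.54 in SHR-Ca (SE 0.29, adjusted p = 1.8e-05), or 5.80-fold, each against the same WKY arrays.

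Of Trim2, Ndfip1 and Ndfip2, Trim2 alone kept its call when no scaling was applied. In that setting 16360 of the 29614 probes tested were called in SHR-C against WKY, 1734 of them in the higher direction. From the unscaled intensities, added as a setting after the data were seen, the change in SHR-C against WKY was 1.42 on the log2 scale (adjusted p = 0.022). With the other scalings it lay between 1.78 (normexp background correction) and 2.20 (quantile normalization). The percentile rank of the Trim2 probe among all probes of its array was 85.7% to 90.8% on SHR arrays and 70.2% to 76.3% on WKY arrays. Over all 9 SHR against 3 WKY arrays, the level differed by 2.53 and the unscaled log2 intensity by 1.61. Each had an exact two-sided permutation p = 0.0091, the smallest that 220 splits allow. Any probe whose strains do not overlap receives this p, so it adds nothing to the lack of overlap.

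**Figure D1:**
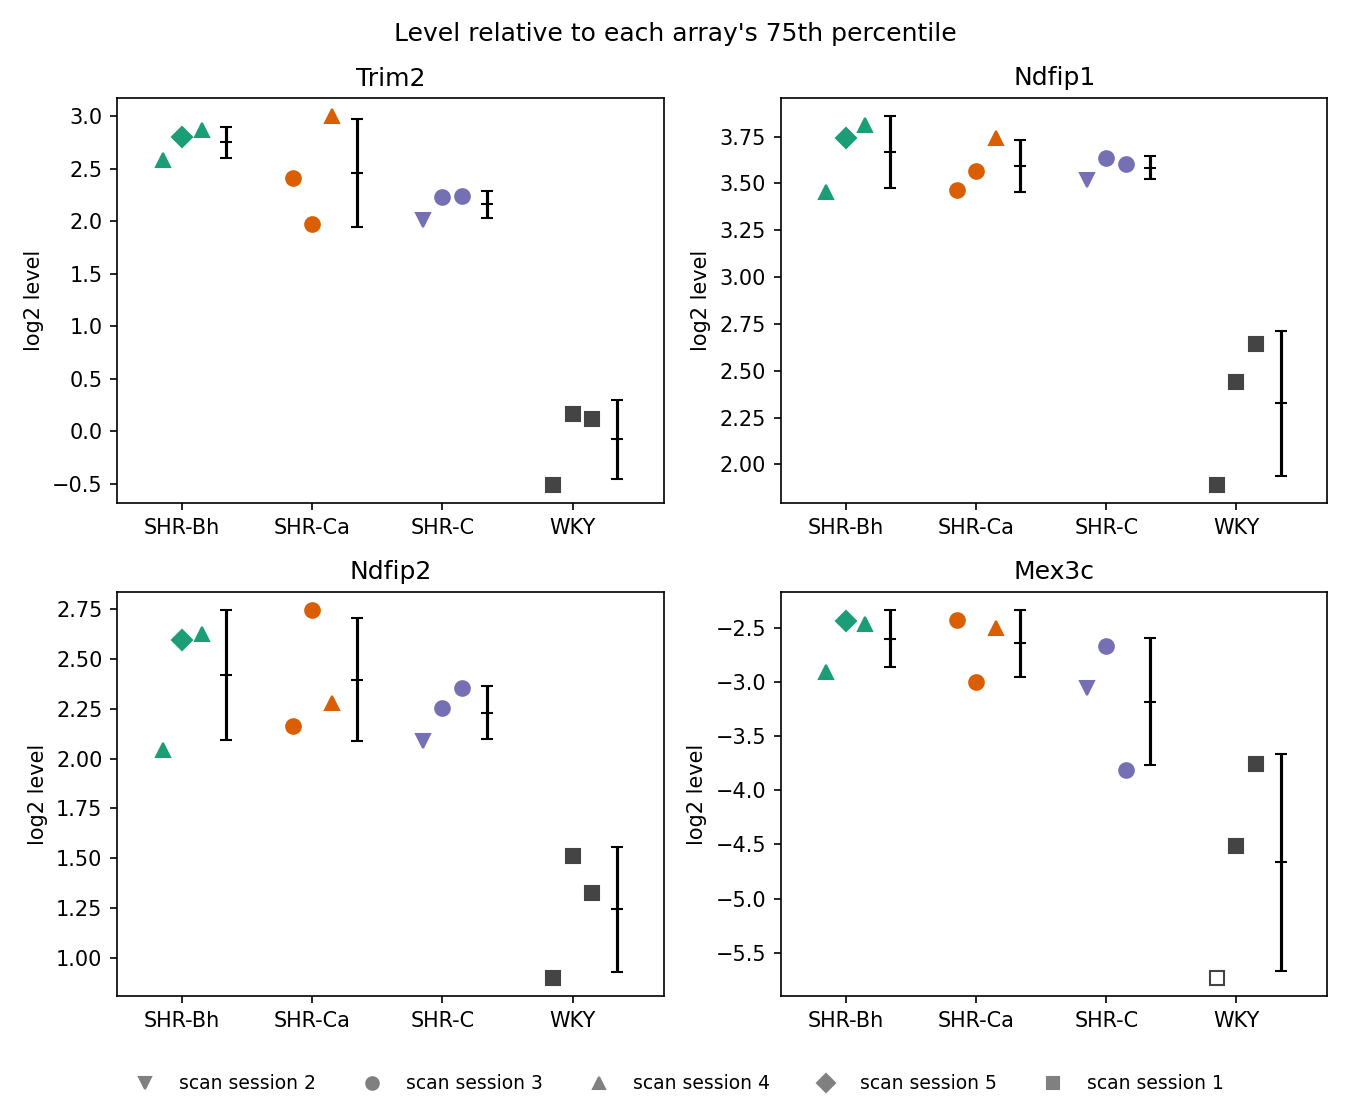
Level of each gene (log2 units above the 75th percentile of its array, vertical axis) on each of the 3 arrays of SHR-Bh, SHR-Ca, SHR-C and WKY; symbols give the scan session, the open square a probe not well above background, and bars the mean ± SD of 3 arrays. SHR and WKY arrays do not overlap for Trim2, Ndfip1 and Ndfip2, and overlap for Mex3c, where SHR-C 3 (-3.82) lies below WKY 3 (-3.76).

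Ndfip1, the adaptor of Nedd4-family ligases, had a higher level in SHR, while its unscaled intensities overlapped between the strains. Its processed intensity was 1201.2, 2463.1 and 2092.3 on the SHR-Bh arrays, 1498.0, 2173.3 and 1780.3 on the SHR-Ca arrays, 2176.1, 1901.4 and 1830.6 on the SHR-C arrays, and 676.0, 1872.0 and 2405.9 on the WKY arrays. WKY 2 and WKY 3 lay inside the range of the SHR arrays, and WKY 1 alone lay below it. After division by the 75th percentile the strains parted. The levels were 3.45, 3.74 and 3.81 in SHR-Bh, 3.47, 3.57 and 3.74 in SHR-Ca, 3.52, 3.63 and 3.60 in SHR-C, and 1.89, 2.44 and 2.64 in WKY. Against WKY the change was 1.34 for SHR-Bh (2.53-fold, SE 0.23, adjusted p = 4e-04) and 1.27 for SHR-Ca (2.40-fold, SE 0.23, adjusted p = 0.00059). For SHR-C it was 1.26 (2.39-fold, SE 0.23, adjusted p = 0.00073).

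Without scaling, the Ndfip1 difference in SHR-C against WKY was 0.44 (adjusted p = 0.49) and the call was lost. Over 9 SHR and 3 WKY arrays the unscaled difference was 0.36 (exact two-sided permutation p = 0.37), against 1.29 for the level (exact p = 0.0091). The difference was 0.99 with quantile normalization and 1.16 with centring on the 10 reference genes, both called (adjusted p = 0.0016 and 0.0011). The percentile rank of the Ndfip1 probe was 91.9% to 93.4% on SHR arrays and 87.5% to 89.7% on WKY arrays, with no overlap. Ranks of Trim2, Ndfip2 and Mex3c did not overlap between the strains either, and the share of all probes without such overlap is not given. Like the level, a rank is relative to the other probes of its array.

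Ndfip2, the close relative of Ndfip1 with the same kind of ligase-binding role, followed the same pattern. Its processed intensity was 452.9, 1111.1 and 918.9 on the SHR-Bh arrays, 605.8, 1228.5 and 646.4 on the SHR-Ca arrays, 808.0, 729.5 and 770.6 on the SHR-C arrays, and 339.6, 983.3 and 963.6 on the WKY arrays. WKY 2 and WKY 3 were brighter than all 3 SHR-C arrays. The levels were 2.04, 2.59 and 2.62 in SHR-Bh, 2.16, 2.74 and 2.28 in SHR-Ca, 2.09, 2.25 and 2.35 in SHR-C, and 0.90, 1.51 and 1.32 in WKY. On this scale the strains did not overlap. Against WKY the change was 1.17 for SHR-Bh (2.26-fold, SE 0.26, adjusted p = 0.002) and 1.15 for SHR-Ca (2.22-fold, SE 0.26, adjusted p = 0.0023). For SHR-C it was 0.99 (1.98-fold, SE 0.26, adjusted p = 0.0065). Without scaling the difference in SHR-C was 0.17 (adjusted p = 0.81), and over all 9 SHR against 3 WKY arrays it was 0.18 (exact two-sided permutation p = 0.64).

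**Figure D2:**
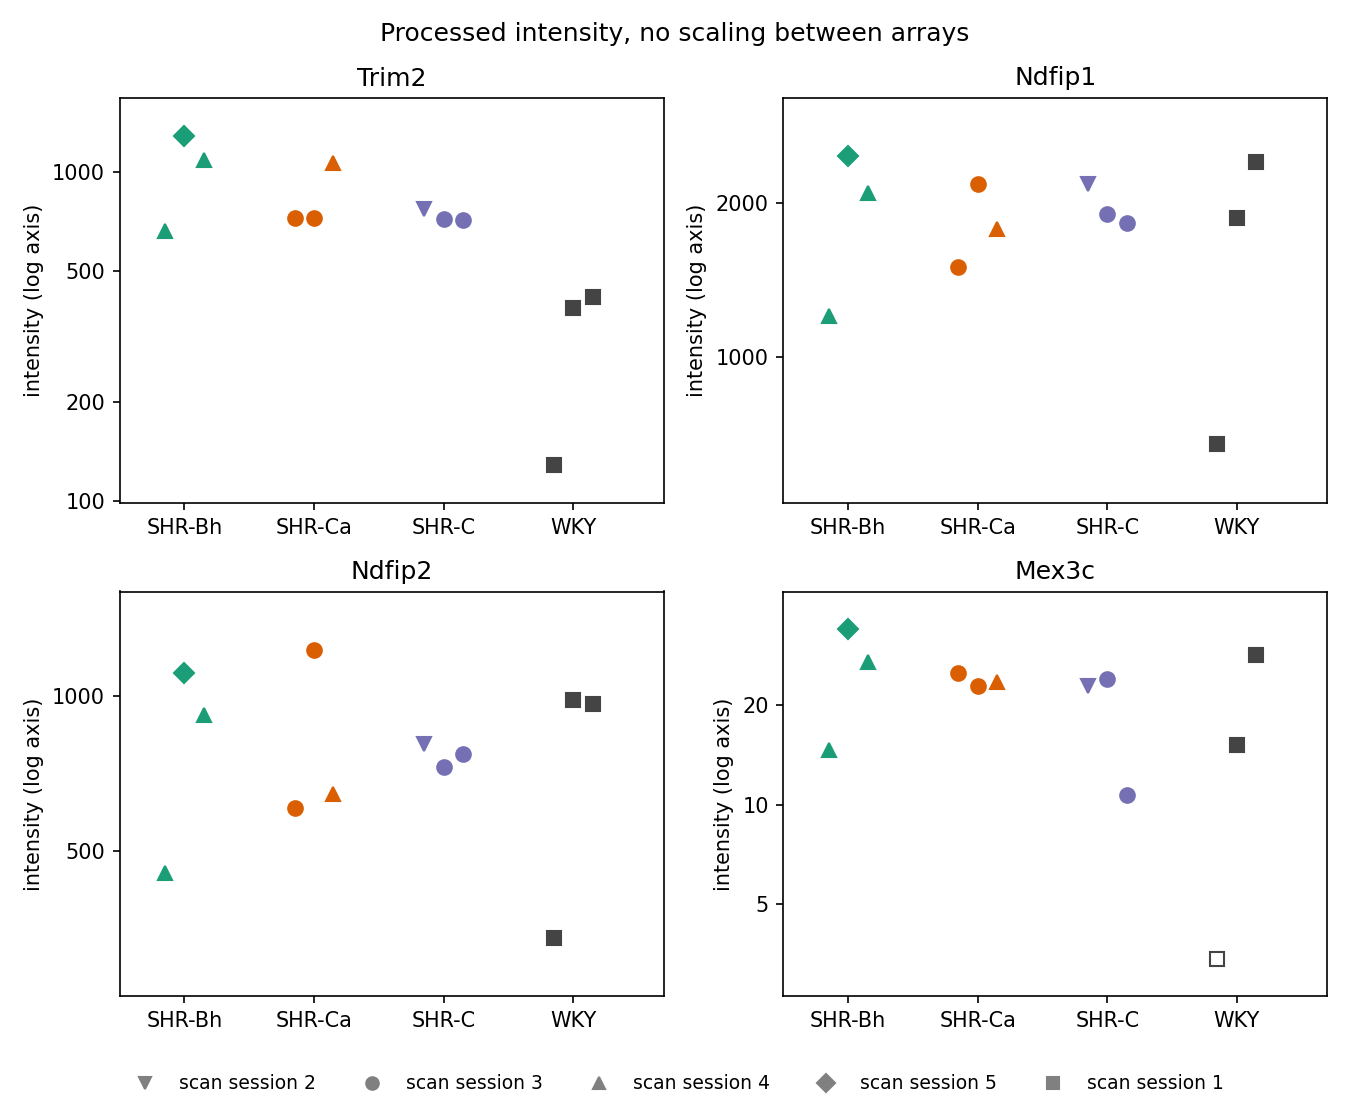
Processed intensity of each probe with no scaling between arrays (vertical log axis) on the arrays of SHR-Bh, SHR-Ca, SHR-C and WKY; symbols give the scan session and the open square a probe not well above background. The 9 SHR arrays lie above the 3 WKY arrays for Trim2 (at least 658.4 against at most 417.0), while WKY 2 and WKY 3 lie within the SHR range for Ndfip1 and Ndfip2. The share of all probes without overlap on this scale is not given.

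Mex3c, the RING protein that binds RNA, gave spots of only 2.10 to 3.93 times the local background. Its processed intensity was 14.6, 34.0 and 27.1 on the SHR-Bh arrays, 25.1, 22.9 and 23.5 on the SHR-Ca arrays, 22.8, 24.1 and 10.7 on the SHR-C arrays, and 3.42, 15.1 and 28.5 on the WKY arrays. It was well above background on all 9 SHR arrays and on 2 of 3 WKY arrays, with WKY 1 as the exception, so it passed the filter on dim probes through SHR alone. The levels were -2.91, -2.44 and -2.46 in SHR-Bh, -2.43, -3.00 and -2.50 in SHR-Ca, -3.06, -2.67 and -3.82 in SHR-C, and -5.73, -4.51 and -3.76 in WKY. SHR-C and WKY overlapped, since SHR-C 3 was below WKY 3, while SHR-Bh and SHR-Ca did not overlap with WKY. Against WKY the fitted difference was 2.07 for SHR-Bh, 2.02 for SHR-Ca and 1.49 for SHR-C on the log2 scale. These are descriptions with no test read from them, because the filter kept the probe through SHR and WKY 1 was not above background. Without WKY 1 the differences were 1.53 for SHR-Bh, 1.49 for SHR-Ca and 0.95 for SHR-C. They were 0.82, 0.76 and 0.72 for the same groups with normexp, and 3.27, 3.18 and 2.57 with quantile normalization.

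Trim2, Ndfip1 and Ndfip2 were well above background on all 12 arrays, and all 3 were higher in SHR-Bh than in WKY by the limma test, where 67.2% of the 29614 probes tested passed, 24.4% in the higher direction. All 3 were also higher in SHR-Ca than in WKY, where 66.4% of probes passed and 23.5% were higher, and in SHR-C than in WKY, where 61.7% passed and 21.9% were higher. Probes whose groups did not overlap, in the higher direction, made up 27.7% for SHR-Bh, 25.2% for SHR-Ca and 26.9% for SHR-C. The 3 comparisons share the WKY arrays. Over all probes tested the median change was -0.51 for SHR-Bh, -0.55 for SHR-Ca and -0.42 for SHR-C. Among the 28 other named genes tested, 14 rose and none fell in SHR-C against WKY, with a median of 0.70. In SHR-Bh against WKY 11 rose and none fell (median 0.55), and in SHR-Ca against WKY 13 rose and 2 fell (median 0.80). WKY 1 had the lowest level of all 12 arrays for each of the 4 genes. Without it the change in SHR-C against WKY was 2.02 for Trim2, 1.04 for Ndfip1 and 0.81 for Ndfip2, all still called (adjusted p = 0.00033, 0.0031 and 0.03).

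**Figure D3:**
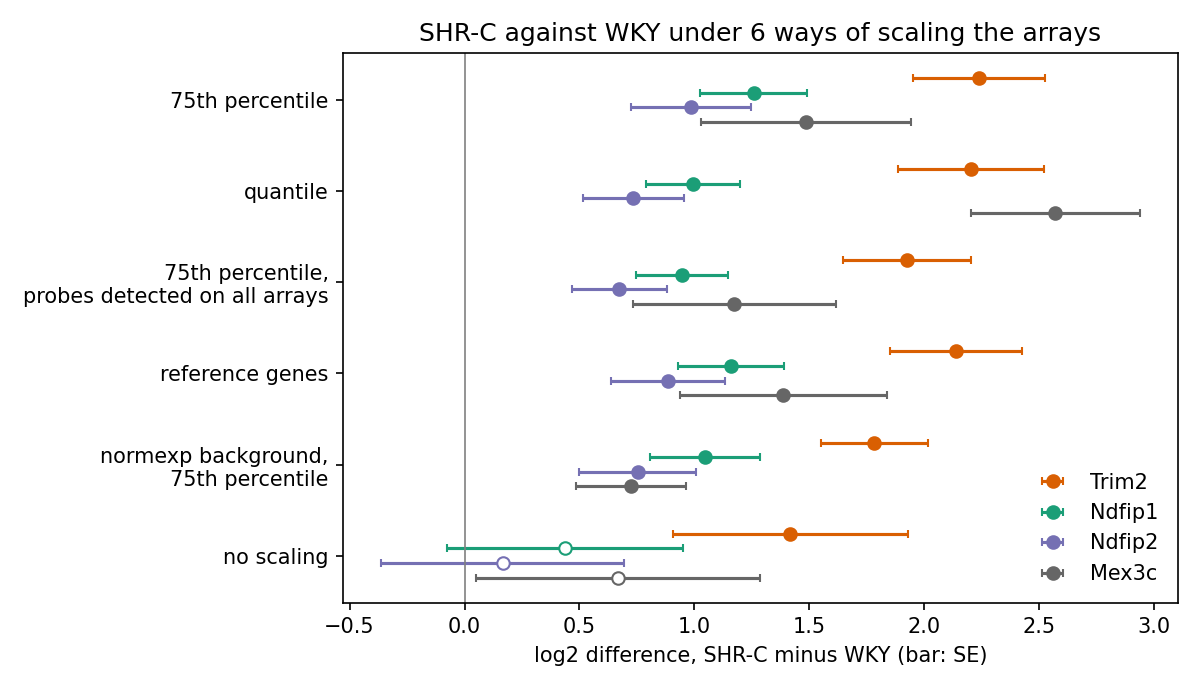
Log2 difference of SHR-C minus WKY (horizontal axis, bars are the SE of the fit) for the 4 genes under 6 ways of scaling the arrays; filled points passed an adjusted p of 0.05. Only Trim2 is filled without scaling, at 1.42, while Ndfip1 (0.44), Ndfip2 (0.17) and Mex3c (0.67) are open there. No test is read from the Mex3c points.

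Ratios between the probes of an array need no scaling between arrays, and those of Trim2 to the adaptors differed between the strains. The log2 ratio of Trim2 over Ndfip1 was between -1.59 and -0.74 on the 9 SHR arrays and between -2.53 and -2.28 on the 3 WKY arrays. The groups did not overlap, and the means differed by 1.25, a 2.37-fold shift (exact two-sided permutation p = 0.0091, the smallest possible). The ratio of Trim2 over Ndfip2 was -0.77 to 0.72 on SHR and -1.40 to -1.21 on WKY arrays, a shift of 1.43 (exact p = 0.0091). Ndfip1 over Ndfip2, the ratio of the 2 adaptors, was 1.27 ± 0.20 on SHR arrays (SD, n = 9) and 1.08 ± 0.21 on WKY arrays (SD, n = 3), and the shift of 0.19 did not pass (exact two-sided permutation p = 0.22). The 3 ratios with Mex3c overlapped between the strains. They shifted by 0.68 for Trim2, -0.57 for Ndfip1 and -0.76 for Ndfip2. No test is read from these 3, because Mex3c was not above background on WKY 1. In all, 6 ratios were computed, and their p-values are not adjusted. A shifted ratio shows that the pair changed unequally, not which of them changed. The share of other probe pairs whose ratios separate the strains was not computed. Single probes often differed, with 61.7% called in SHR-C against WKY in either direction, so such ratios may be common.

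**Figure D4:**
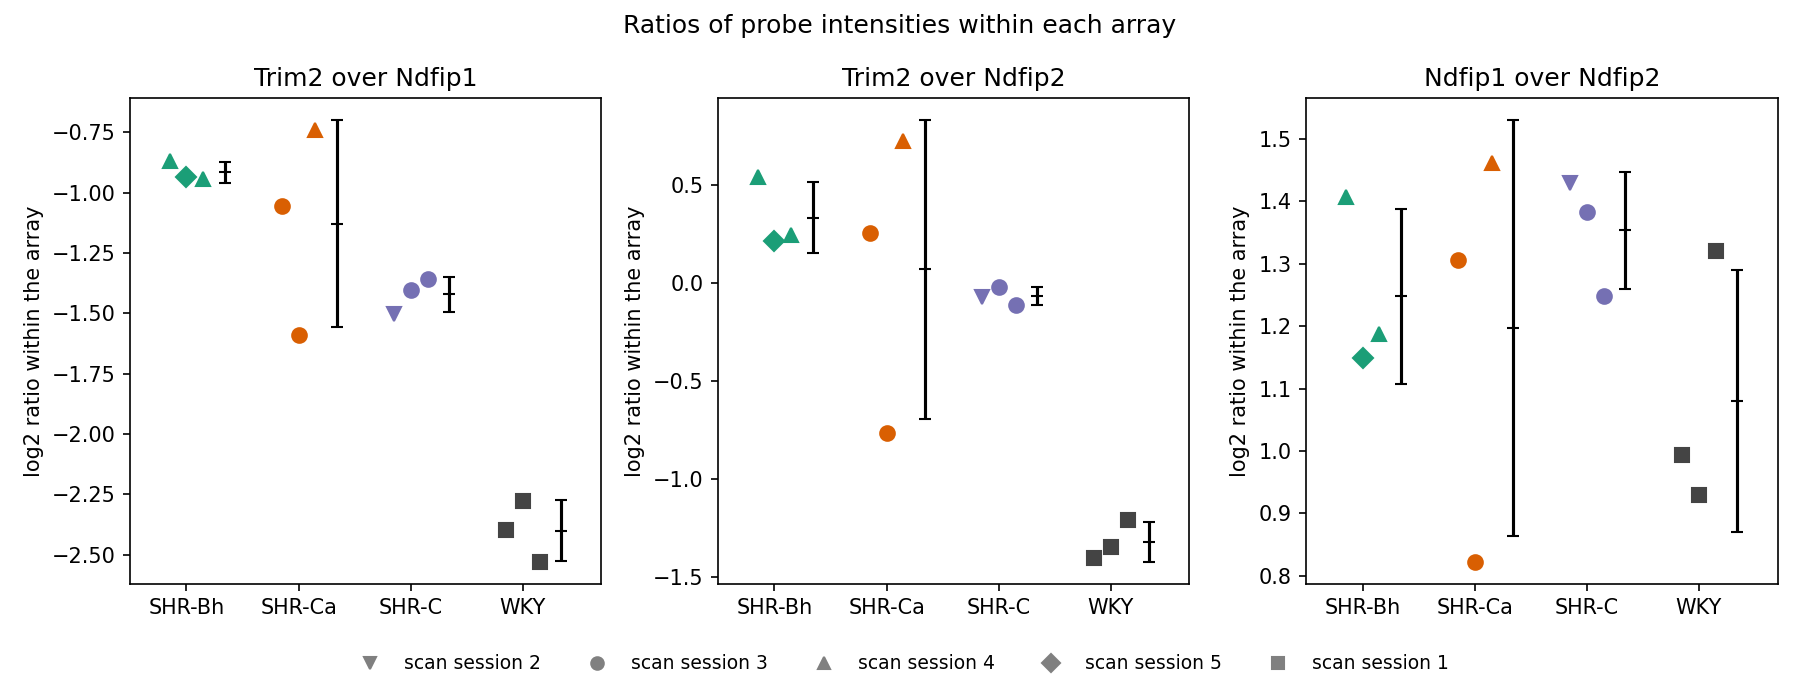
Log2 ratio of the processed intensities of 2 probes on the same array (vertical axis) for SHR-Bh, SHR-Ca, SHR-C and WKY; symbols give the scan session and bars the mean ± SD of 3 arrays. Both ratios of Trim2 are lower on all 3 WKY arrays than on any SHR array, and Ndfip1 over Ndfip2 overlaps between the strains. The share of other probe pairs that separate the strains was not computed.

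The comparison of each drug with SHR-C asks whether treatment changed these genes in the hypertensive strain. None of the 4 passed in SHR-Bh against SHR-C, where limma called 0.0945% of probes and 10.9% had an unadjusted p under 0.05, and none of the 4 had such a p in this fit. Trim2 came nearest: all 3 SHR-Bh arrays (2.58 to 2.86) were above all 3 SHR-C arrays (2.01 to 2.24), a pattern that 5.9% of probes showed in that direction. The difference was 0.59 (95% confidence interval -0.042 to 1.22, unadjusted p = 0.065, adjusted p = 0.47). For Ndfip1 it was 0.083 (-0.43 to 0.60), for Ndfip2 0.19 (-0.38 to 0.76) and for Mex3c 0.58 (-0.43 to 1.59). With the scan session as a block, Ndfip1 was -0.21 (SE 0.52) and Ndfip2 0.20 (SE 0.61), so these intervals widen once the session is allowed for.

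Captopril gave no call either: none of the 4 passed in SHR-Ca against SHR-C, where 0.28% of probes passed and 12.2% had an unadjusted p under 0.05, and none of the 4 had one. The difference was 0.30 for Trim2 (95% confidence interval -0.33 to 0.93), 0.0074 for Ndfip1 (-0.51 to 0.52), 0.16 for Ndfip2 (-0.41 to 0.74) and 0.54 for Mex3c (-0.47 to 1.54). In SHR-Bh against SHR-Ca no probe of the array passed in limma, 7.18% had an unadjusted p under 0.05, and the 4 genes differed by 0.025 to 0.29. The difference was 0.29 for Trim2 (-0.34 to 0.92), 0.076 for Ndfip1 (-0.44 to 0.59), 0.025 for Ndfip2 (-0.55 to 0.60) and 0.042 for Mex3c (-0.96 to 1.05).

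**Figure D5:**
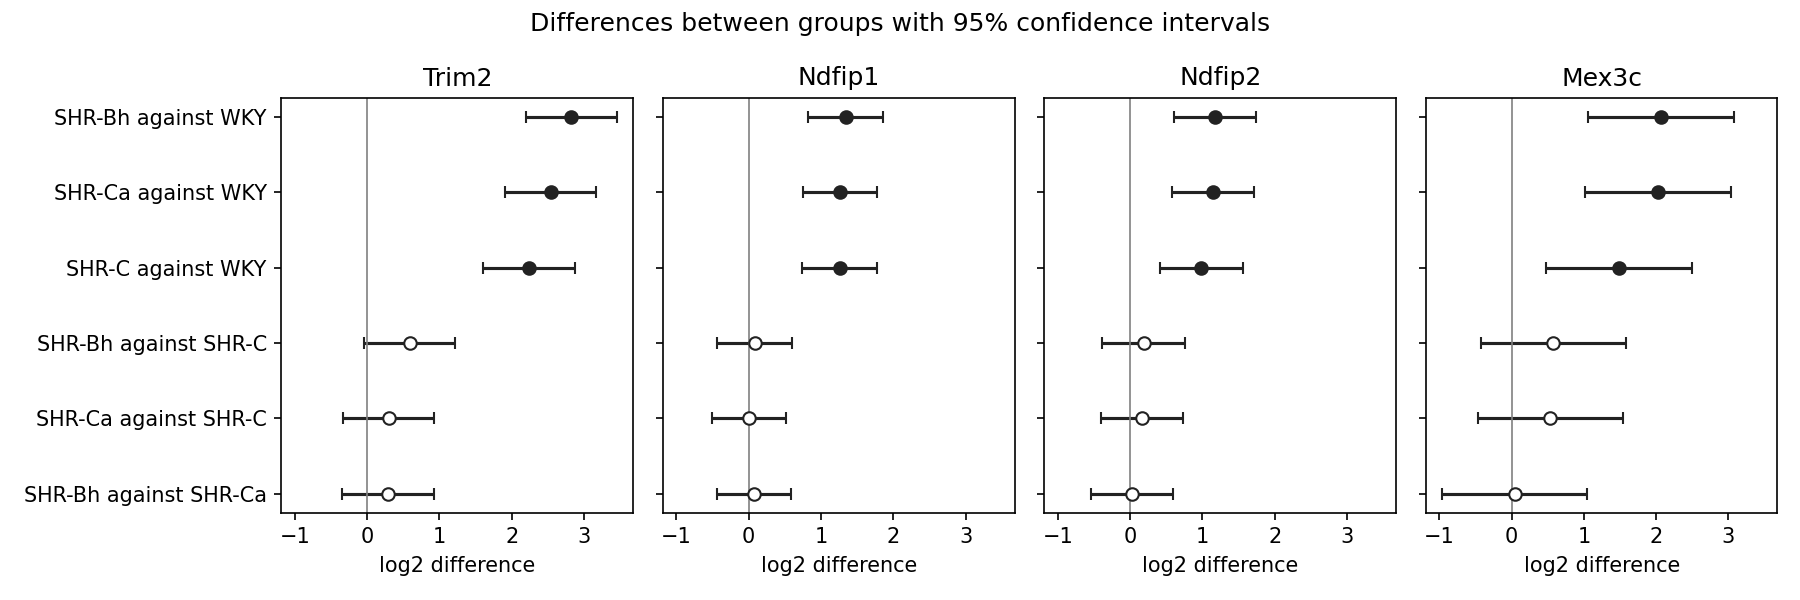
Log2 difference of the first group minus the second (horizontal axis) for 6 comparisons, with 95% confidence intervals from the limma fit; filled points passed an adjusted p of 0.05. All 12 points of SHR groups against WKY are filled, those of Mex3c with WKY 1 not above background, and all 12 points between SHR groups are open with intervals that include 0. No test is read from the Mex3c points against WKY.

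The Trim2 levels within SHR divided by scan session. The 4 arrays of sessions 4 and 5, which were SHR-Bh 1 to 3 and SHR-Ca 3, had levels of 2.58 to 3.00. The 5 arrays of sessions 2 and 3, which were SHR-C 1 to 3, SHR-Ca 1 and SHR-Ca 2, had levels of 1.98 to 2.41. The ratio of Trim2 over Ndfip1 divided the same arrays, at -0.94 to -0.74 against -1.59 to -1.05. That ratio was -0.92 ± 0.042 in SHR-Bh and -1.42 ± 0.074 in SHR-C (SD, n = 3 each), and no scan session held arrays of both groups. In session 3, with 2 arrays of each group, SHR-Ca minus SHR-C was -0.042 for Trim2, -0.10 for Ndfip1, 0.15 for Ndfip2 and 0.53 for Mex3c. In session 4, SHR-Bh (2 arrays) minus SHR-Ca (1 array) was -0.27 for Trim2, -0.11 for Ndfip1, 0.055 for Ndfip2 and -0.18 for Mex3c. With the session as a block the Trim2 difference of SHR-Bh against SHR-C turned to -0.32 (adjusted p = 1), a value that reaches across sessions through the SHR-Ca arrays. Whether the session or the drug set these values was not tested.

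The spread between SHR arrays differed by gene. Ndfip1 was the steadiest, with levels of 3.45 to 3.81 over 9 arrays (3.61 ± 0.13, SD), while Ndfip2 ran from 2.04 to 2.74 (2.35 ± 0.25), Trim2 from 1.98 to 3.00 (2.46 ± 0.37) and Mex3c from -3.82 to -2.43 (-2.81 ± 0.45). Among the spots of a probe on 1 array, the SD on the log2 scale was 0.032 to 0.072 for Ndfip1, 0.041 to 0.097 for Ndfip2 and 0.063 to 0.11 for Trim2 on SHR arrays. For Mex3c it was 0.068 to 0.28 on SHR arrays and reached 0.70 on WKY 1.

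Of the other 37 named genes, Pdcd10, linked to vessel stability, had the pattern most like that of both adaptors over the 12 arrays. Pearson's r of the level over 12 arrays was 0.97 with Ndfip1 and 0.98 with Ndfip2, and over the 9 SHR arrays it was 0.64 and 0.89. Over those 9 arrays Cse1l came closer to Ndfip1 (0.66) and Nat1 to Ndfip2 (0.893, against 0.886 for Pdcd10). These r are descriptions across arrays that share scan sessions, scaling and a gap between strains. Next to Ndfip2 came Enpp1 (0.96, and 0.88 over the SHR arrays) and Hprt1 (0.96 and 0.83). Next to Ndfip1 came Trim2 (0.97 and 0.63) and Eif4b (0.96 and -0.033). For Trim2 the nearest were Ndfip1, Eif4b (0.96 and 0.11) and Cyp2e1 (0.94 and 0.042), and for Mex3c Ndfip1 (0.92 and 0.35), Trim2 (0.90 and 0.59) and Enpp1 (0.85 and 0.16). For Eif4b and Cyp2e1 the likeness to Trim2 over 12 arrays was not seen among the 9 SHR arrays.

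No further gene of the pathway could be set beside these 4. Of 67 genes on 5 lists, which held the Nedd4-family ligases, the proteins they act on or bind, TRIM and other RING ligases, known targets of Trim2 and Mex3c, and the ubiquitin and proteasome core, 0 were among the named genes of the array. None of the 46 markers on 9 lists of vessel wall, fat, immune, nerve, blood and muscle cells was named either. The tissue label could therefore not be checked against markers, and fewer cells of a type cannot be told apart from less RNA per cell.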

How the data were processed

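The authors deposited the scanner output of every array, which lists a processed intensity for each spot. Background subtraction and removal of spatial trends were done by Agilent Feature Extraction (version 11.0.1.1), per the file headers, which record no scaling between arrays. The other deposited columns used were the 0 or 1 flags of that software for outlier, saturated and well-above-background spots. Of 43040 spots, 41623 were not controls, and no spot of the 4 probes was saturated. The headers name the build rn4, which differs from the GRCr8 of the gene table, so no coordinates of probes are given. Probe sequences were not used here.

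Spots marked as outliers were left out (17 of the 480 spots of the 4 probes), log2 intensities were averaged per probe, and the array's 75th percentile was subtracted. A probe counted as well above background where more than 50% of its spots were. Testing was limited to the 29614 probes (77.3%) for which that held on every array of some group, and all 4 genes were among them. One fit in limma 3.58.1 under R 4.3.3 took all 12 arrays and gave each group its own mean; Benjamini-Hochberg adjustment of its moderated two-sided p-values covered all tested probes, and calls were made at 0.05. Single values were tested by exact permutation over arrays. The fit was tested on simulated data with independent noise, few changed probes and no shift between arrays or scan sessions. That setting differs from the comparisons with WKY, where most probes were called, so it does not show how the fit performs there. The 4 genes, the lists and the tests were chosen with earlier results of these data known. All 4 genes were named whatever their p, with the 3 most similar named genes of each.

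The alternatives were other scalings, normexp background correction (offset 50, on the spot's median brightness because the files hold no mean), other filters, outlier spots kept, array weights, only the compared groups, the scan session as a block (consensus correlation 0.11 for WKY comparisons), the replicate number as a block, and each array left out. The number of arrays limits the precision. Replicate numbers come from the titles, which do not say that they pair samples. Deviations from group means correlated between same-numbered arrays at 0.18 to 0.48 for SHR-C and WKY and 0.15 to 0.31 for SHR-Bh and WKY, and at -0.55 to 0.12 between the other groups, so only the first pair of comparisons met the criterion for pairing (every correlation over 0.1). Differently numbered arrays also correlated, as WKY 3 and SHR-C 2 did at 0.35. Over all groups, 7 of 18 same-numbered pairs exceeded 0.1 (median -0.087), against 12 of 36 others (median 0.044).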

Additional observations from a re-analysis of the deposited data

How the results depend on the processing

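Against WKY, the level of Trim2, Ndfip1 and Ndfip2 was higher in every SHR group under each alternative run, as was that of Mex3c where it had a value, and Trim2 passed in all of them. The session block could not remove a session difference there, because session 1 held all WKY arrays and no SHR array. Without scaling Ndfip1 and Ndfip2 lost their calls. They were at 0.44 and 0.17 in SHR-C, 0.34 and 0.17 in SHR-Bh, and 0.31 and 0.19 in SHR-Ca. Over all SHR arrays they were at 0.36 and 0.18. Mex3c, from which no test is read, was at 0.67 in SHR-C, 1.07 in SHR-Bh and SHR-Ca, and 0.93 over all SHR arrays. The 75th percentiles of the arrays are not made equal in that setting. Leaving out 1 array put Mex3c in SHR-C between 0.95 and 1.94. With only SHR-C and WKY arrays the ratios to Ndfip1 and Ndfip2 of Trim2 shifted by 0.98 and 1.25, where 3 against 3 arrays allow no exact p below 0.1. With normexp the ratio to Mex3c shifted by 1.31 for Trim2 and turned to 0.34 for Ndfip1 and 0.11 for Ndfip2; leaving out 1 array put these 3 shifts at 0.32 to 0.99, -0.87 to -0.25 and -1.17 to -0.39. The cause was not tested. No call with the replicate block changed (the Trim2 change in SHR-C stayed 2.24, adjusted p = 0.00014).

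Between SHR groups no call was made under any alternative, and small differences changed sign. For Trim2 in SHR-Bh against SHR-C the unadjusted limma p was 0.026 with normexp, 0.033 with array weights and 0.036 with only the compared groups. The adjusted p in these settings was 0.99, 0.2 and 0.5. SHR-Bh against SHR-C turned for Ndfip1 to -0.081 (quantile), -0.010 (75th percentile of probes detected on all arrays), -0.048 (reference genes), -0.10 (no scaling) and -0.21 (session block), and for Trim2 to -0.32 (session block). SHR-Ca against SHR-C turned for Ndfip1 to -0.13 (no scaling) and -0.10 (session block), with -0.067 to 0.070 when leaving out 1 array, for Ndfip2 to -0.011 to 0.28 when leaving out 1 array, and for Trim2 to -0.042 (session block). SHR-Bh against SHR-Ca turned for Ndfip1 to -0.12 (quantile), -0.056 (detected probes), -0.15 (reference genes) and -0.11 (session block), and for Ndfip2 to -0.10 (quantile), -0.11 (detected probes), -0.20 (reference genes), -0.00032 (normexp) and -0.019 (no scaling), with -0.092 to 0.21 when leaving out 1 array. It turned for Trim2 to -0.27 (session block), and for Mex3c to -0.090 (detected probes), -0.18 (reference genes), -0.0021 (no scaling) and -0.18 (session block), with -0.14 to 0.19 when leaving out 1 array.

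Over all probes, SHR-C against WKY called 18278, with 10830 under normexp and 9554 under the strict filter, which demands signal above background on all arrays and gives no value for Mex3c. SHR-Bh and SHR-Ca against WKY called 19896 and 19654, with 11988 and 12286 under normexp and 10642 and 10453 under the strict filter. SHR-Bh against SHR-C called 28 and SHR-Ca against SHR-C 83, with 0 to 249 and 0 to 192 over the alternatives; SHR-Bh against SHR-Ca called 0, with 20 without SHR-Bh 1. Of the calls in SHR-C against WKY, 35.5% were higher with the 75th percentile, 47.7% with quantile normalization, 57.1% with normexp and 10.6% without scaling, and all probes had a median change of -0.42, -0.088, 0.18 and -1.24 under these settings. Depth of signal limits Mex3c, at 2.10 to 3.93 times the local background.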

Other observations

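Of the 17 spots that the scanner software marked as outliers among the 480 spots of the 4 probes, 13 belonged to Mex3c, 9 of them on SHR arrays and 4 on WKY arrays. With those spots kept, the Mex3c change in SHR-C against WKY was 1.55, against 1.49 without them.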
